A study of Mus musculus with 14 samples.

Results

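Efferocytosis is the uptake and digestion of dying cells by phagocytes, and 9 of its genes were followed here in CD11b+ microglia/macrophages after traumatic brain injury (TBI). They are the TAM receptors Axl and Mertk, the ligands Gas6 and Pros1, the bridging protein gene Mfge8, the integrin genes Itgav and Itgb5, and the engulfment genes Elmo1 and Dock2. The genes were listed by name for their roles, and each symbol was matched to its Ensembl row among the 33939 rows of the deposited expression table. All 9 were found and were above 0 in all 14 libraries.

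The mice were C57BL/6 males, 8 to 12 weeks old by their labels, and all carried Cx3cr1-CreER+/- and were given tamoxifen. Ctrl mice carried no other labelled allele, and cKO mice also carried a homozygous floxed allele, so that Cre deletes the targeted gene in Cx3cr1-expressing cells, which include microglia and other myeloid cells. The study left a wait between tamoxifen and injury, so that peripheral Cx3cr1+ monocytes would be replaced and less affected by the deletion. TBI was a controlled cortical impact, and CD11b+ cells were sorted with magnetic beads 3 days later from the injured ipsilateral (IL) and the contralateral (CL) hemisphere. Each hemisphere was represented by 4 Ctrl and 3 cKO libraries, from 8 mice, of which 6 gave both hemispheres (Ctrl 3541, 3545, 3546 and 3551, and cKO 791 and 3592), whereas cKO 788 gave CL and cKO 784 gave IL only. Libraries of uninjured mice are not analysed here, so CL is the opposite side of an injured brain.

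Dying cells expose phosphatidylserine on their outer membrane. GAS6 and protein S (PROS1) bind it and bridge it to the TAM receptor tyrosine kinases TYRO3, AXL and MERTK, and MFGE8 bridges it to integrins of the αv family, such as the pair encoded by Itgav and Itgb5. Both routes lead to the ELMO-DOCK module, an exchange factor that activates RAC and reshapes the actin cytoskeleton around the target. In macrophages MERTK is known as the receptor of steady-state clearance and AXL as a receptor induced during inflammation, and microglia of the adult brain express both.

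The genes lie on 6 chromosomes in the GRCm38 (mm10) annotation. Axl (ENSMUSG00000002602) spans chr7:25757273-25788705 on the minus strand, Mertk (ENSMUSG00000014361) chr2:128698956-128802894 on the plus strand, Gas6 (ENSMUSG00000031451) chr8:13465374-13494490 on the minus strand, and Pros1 (ENSMUSG00000022912) chr16:62854307-62929346 on the plus strand. Mfge8 (ENSMUSG00000030605) spans chr7:79133768-79149060 on the minus strand, Itgav (ENSMUSG00000027087) chr2:83724397-83806916 and Itgb5 (ENSMUSG00000022817) chr16:33829665-33949338 on the plus strand, Elmo1 (ENSMUSG00000041112) chr13:20090596-20608353 on the plus strand, and Dock2 (ENSMUSG00000020143) chr11:34226815-34783892 on the minus strand. The values are summed over the exons of each gene and do not separate isoforms. Exons of 4 genes overlap a gene of the opposite strand, which a kit that does not mark strand cannot tell apart, by 34 bases for Gas6, 634 for Itgav, 403 for Elmo1 and 460 for Dock2. The partners with a row in the table, Tmem255b, Gm13684 and Gm32036, were at most 0.62, 4.08 and 2.48 CPM (reads per 1000000 assigned to genes). Itgb5 also shares 343 bases at 99.7% identity with Gm38317, which was at 30.1 to 71.3 CPM.

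The promoters of the 4 members that changed most between hemispheres are shown, since 2 of these genes were higher and 2 lower in IL in both genotypes. Each window runs 5′ to 3′ from 250 bases before to 50 after the RefSeq start (GRCm38.p6), and capitals mark matches, on either strand, to 5 motifs chosen after the expression values were seen. The windows are chr7:25788684-25788983 (minus strand) for Axl, chr8:13494486-13494785 (minus strand) for Gas6, chr2:128698665-128698964 (plus strand) for Mertk, and chr13:20090257-20090556 and chr13:20472740-20473039 (plus strand) for the 2 starts of Elmo1.
Axl: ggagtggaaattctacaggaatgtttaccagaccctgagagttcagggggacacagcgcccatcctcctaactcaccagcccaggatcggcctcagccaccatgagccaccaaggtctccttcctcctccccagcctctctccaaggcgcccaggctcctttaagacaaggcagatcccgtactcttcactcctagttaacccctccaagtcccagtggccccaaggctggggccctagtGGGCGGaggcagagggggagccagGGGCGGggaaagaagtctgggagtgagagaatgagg
Gas6: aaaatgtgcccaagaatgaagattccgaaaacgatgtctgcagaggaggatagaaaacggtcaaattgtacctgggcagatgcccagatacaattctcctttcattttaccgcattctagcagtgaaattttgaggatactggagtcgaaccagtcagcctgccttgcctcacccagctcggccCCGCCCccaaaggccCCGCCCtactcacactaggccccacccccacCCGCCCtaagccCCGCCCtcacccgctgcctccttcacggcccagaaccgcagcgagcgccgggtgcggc
Mertk: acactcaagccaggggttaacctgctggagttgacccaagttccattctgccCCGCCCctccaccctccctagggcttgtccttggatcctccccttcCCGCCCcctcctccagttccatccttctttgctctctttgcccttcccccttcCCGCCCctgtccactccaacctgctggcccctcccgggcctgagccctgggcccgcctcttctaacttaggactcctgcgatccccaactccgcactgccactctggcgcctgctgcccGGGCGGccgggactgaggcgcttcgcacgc
Elmo1, first start: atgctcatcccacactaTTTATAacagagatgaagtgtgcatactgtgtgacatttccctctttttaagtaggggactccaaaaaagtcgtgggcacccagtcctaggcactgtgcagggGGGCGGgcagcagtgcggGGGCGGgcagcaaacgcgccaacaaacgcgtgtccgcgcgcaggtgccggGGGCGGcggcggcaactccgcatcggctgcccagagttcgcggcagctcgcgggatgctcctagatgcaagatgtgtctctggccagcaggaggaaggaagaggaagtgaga
Elmo1, second start: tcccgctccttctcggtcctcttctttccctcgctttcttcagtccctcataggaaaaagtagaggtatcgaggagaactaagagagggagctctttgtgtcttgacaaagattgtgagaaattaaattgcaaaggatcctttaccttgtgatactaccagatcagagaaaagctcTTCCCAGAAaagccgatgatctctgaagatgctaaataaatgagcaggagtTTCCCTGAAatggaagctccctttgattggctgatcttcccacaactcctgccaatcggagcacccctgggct

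The GC box GGGCGG matched 2 times in the Axl window, 4 times each in those of Gas6 and Mertk and 3 times in the first of Elmo1, and 35.9% of 32544 distinct mouse promoter windows hold it. The TATA box TATAAA matched once, far upstream in the first Elmo1 window, against 13.6% of all windows. The gamma-activated site TTCNNNGAA, which reads alike on both strands, matched at 2 places in the second Elmo1 window and in none of the other 4, against 8.33% of all windows. Neither the interferon-stimulated response element, read as GAAA followed by any 2 bases and GAAA (3.45% of windows), nor the AP-1 site TGANTCA (7.79%) matched in these 5 windows. The GC box stood in windows of genes of both directions, and no match in 300 bases says nothing of a factor's use of the gene.

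Depth, taken from the smallest step between deposited values, ranged from 12.2 M reads (Ctrl 3546 IL) to 41.6 M, and the members rested on about 619 reads or more in each library. Itgam, which encodes CD11b, was at 650.3 to 1714 CPM. The microglial list (10 genes) summed to between 17539 and 44355 CPM, against at most 881 CPM for 8 monocyte genes, 829.9 CPM for 8 border-associated macrophage genes and 230.0 CPM for 8 astrocyte genes. The exception was a list of 8 neutrophil genes, which reached 7764 CPM in a Ctrl CL library. Among the Ctrl mice, 3541 and 3545 lay apart from 3546 and 3551 in both hemispheres for several members. In CPM they lay below for 6 of the 9 genes (Mertk, Gas6, Itgav, Itgb5, Elmo1 and Dock2) and above for 0, where 26.2% of 18475 genes tested lay below and 7.54% above. On the scaled log2 values used for the tests they lay below for 3 (Gas6, Itgav and Dock2) and above for 2 (Pros1 and Mfge8), where 16.8% of genes lay below and 19.6% above.

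Per kilobase of exon, the 9 genes spanned a wide range of levels. In Ctrl CL, Itgb5 was highest at 727 CPM per kb (mean, n = 4), followed by Pros1 (151), Mertk (115), Gas6 (100.2), Elmo1 (42.8), Dock2 (20.2), Mfge8 (13.2), Axl (11.8) and Itgav (10.2). Among neighbours in this order, Itgb5 was separate from Pros1, Gas6 from Elmo1 and Elmo1 from Dock2 in all libraries of the group, and the other pairs overlapped. Tyro3, the third TAM receptor, was near the floor at 0.191 to 0.301 CPM per kb (group means), on 25.0 to 67.0 reads per library, and was called in no comparison. In Ctrl IL Gas6 (171 CPM per kb) stood above Pros1 (116), whereas Axl stayed below Mertk (19.0 against 63.8 CPM per kb in Ctrl IL and 30.4 against 62.0 in cKO IL).

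**Figure D1:**
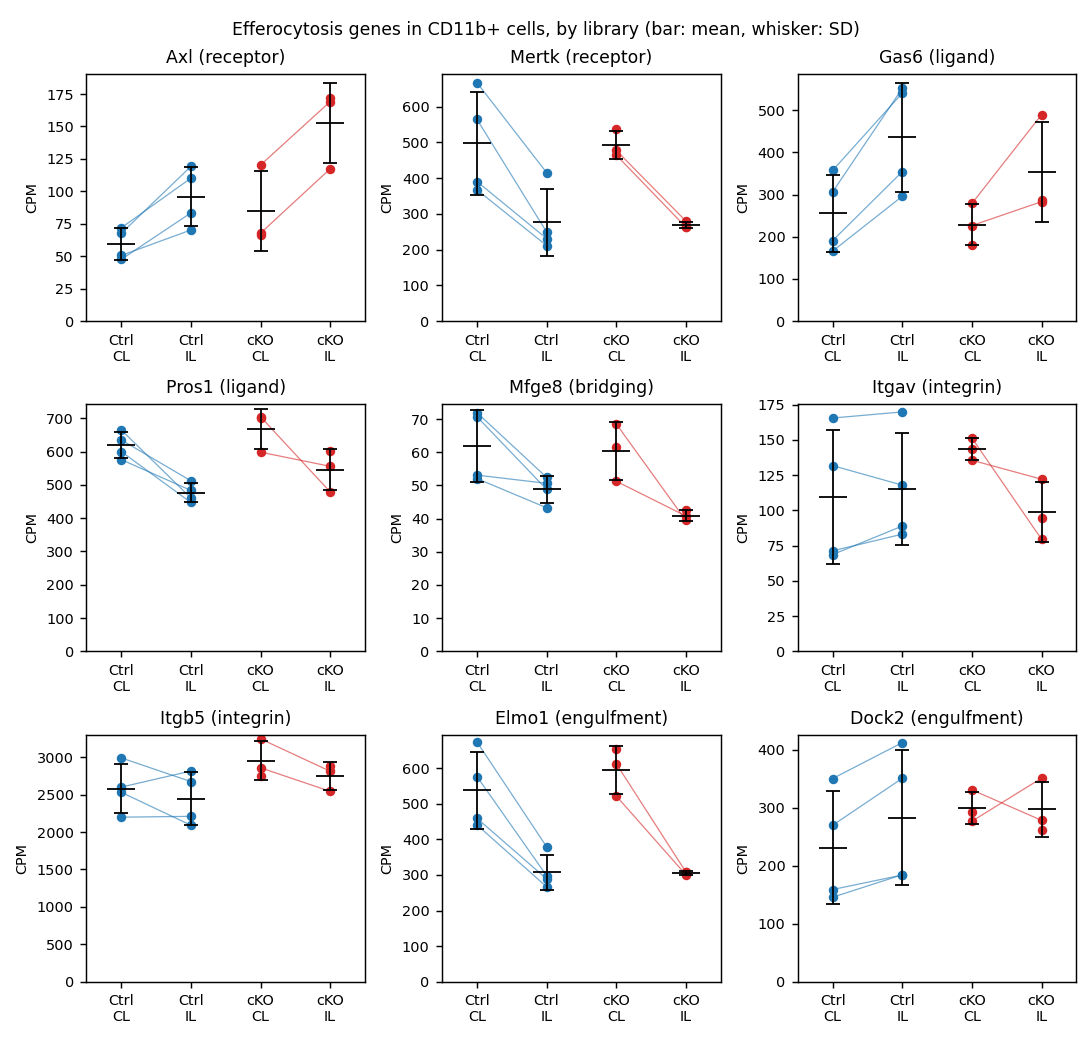
CPM of the 9 genes in each library (points, lines join the hemispheres of 1 mouse, bars are group means and whiskers SD; n = 4 Ctrl and 3 cKO per hemisphere). In all 6 mice that gave both hemispheres Axl and Gas6 are higher and Mertk, Pros1, Mfge8 and Elmo1 are lower on the injured side.

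Axl, the inflammation-induced receptor, was higher on the injured side. It was at 71.9, 50.6, 67.6 and 47.5 CPM in Ctrl CL (mice 3541, 3545, 3546 and 3551) and at 110.1, 70.2, 119 and 83.4 CPM in Ctrl IL. Each Ctrl mouse had more Axl in IL than in CL, by 1.39 to 1.76 times, but the groups overlapped between 70.2 and 71.9 CPM. This log2 difference of 0.76 (SE 0.21, 95% CI 0.28 to 1.24) was not called when mice were ignored (limma adjusted p = 0.0635), whereas a fit that took each mouse as a block called it (SE 0.09, adjusted p = 0.0016). A gene was called at an adjusted p of 0.05 or less with a fold change of at least 1.2.

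In cKO, Axl was at 66.0, 120.2 and 67.7 CPM in CL (mice 788, 791 and 3592) and at 172, 169 and 117 CPM in IL (mice 784, 791 and 3592). Here too both mice with 2 libraries had more in IL, 1.41 times in 791 and 1.73 times in 3592, and the groups overlapped only through 791 CL. Axl rose, with a log2 fold change of 0.95 (SE 0.26, adjusted p = 0.0353), and by 0.71 with the mouse as a block (adjusted p = 0.0104). The call without the block was lost on leaving out 788 CL (log2 0.82, adjusted p = 0.0972), 3592 CL (0.80, 0.0646), 784 IL (0.85, 0.114) or 791 IL (0.83, 0.117).

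Mertk, the steady-state clearance receptor, went the opposite way. It was at 367, 390.2, 667 and 564 CPM in Ctrl CL and at 211, 231, 415 and 249 CPM in Ctrl IL. IL was at 0.441 to 0.623 of CL within each mouse, whereas across mice 3546 IL lay above 3541 CL and 3545 CL. The log2 fold change of -0.77 (SE 0.22, 95% CI -1.25 to -0.28) was not called without the block (adjusted p = 0.0624) and was called with it (adjusted p = 0.00348). In cKO, Mertk was at 536, 477 and 464 CPM in CL and 264, 279.7 and 263 CPM in IL, with no overlap, and it fell by 0.80 on the log2 scale (SE 0.11, adjusted p = 0.0036). This call held on leaving out each of the 6 libraries (adjusted p at most 0.0217) and with the mouse as a block (-0.72, adjusted p = 0.0128).

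The ratio of the receptors differed between hemispheres in each of the 6 mice that gave both. Axl per kilobase was 0.0726 to 0.169 of Mertk in Ctrl CL and 0.247 to 0.450 in Ctrl IL, and it was 0.106 to 0.217 in cKO CL and 0.385 to 0.562 in cKO IL. IL and CL did not overlap in either genotype. This ratio was looked at after the values were seen and is given without a test. Since libraries are of sorted bulk cells, fewer cells that carry a transcript and less transcript per cell cannot be told apart here or below.

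Gas6, the ligand shared by the TAM receptors, was higher on the injured side, as Axl was. It was at 191, 166, 307 and 358 CPM in Ctrl CL and at 354, 296, 552 and 541 CPM in Ctrl IL, 1.51 to 1.86 times higher within each mouse. The groups overlapped, and mice 3546 and 3551 had more than 3541 and 3545 in both hemispheres. The log2 fold change was 0.88 (SE 0.24, 95% CI 0.34 to 1.41, limma adjusted p = 0.0558), short of a call, and the blocked fit called it (SE 0.09, adjusted p = 0.00107). In cKO, Gas6 was at 180.4, 227 and 279 CPM in CL and 286, 283 and 489.6 CPM in IL, so that every IL library lay above every CL library. Its log2 fold change of 0.66 missed the call (adjusted p = 0.053) and passed with the block (0.64, adjusted p = 0.0239).

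Pros1 encodes protein S, an anticoagulant cofactor that also activates TYRO3 and MERTK, and it was lower in IL. It was at 600.1, 665, 576 and 635 CPM in Ctrl CL and at 447, 461, 483 and 512 CPM in Ctrl IL, with no overlap. Its log2 fold change of -0.29 (SE 0.12) was not called without the block (adjusted p = 0.184) and was just called with it (adjusted p = 0.0416), a call lost without mouse 3541 (adjusted p = 0.153), 3545 (0.148) or 3551 (0.121). In cKO, Pros1 was at 700.4, 705 and 598 CPM in CL and 603, 479 and 556 CPM in IL, which overlapped at 598 and 603 CPM (log2 -0.23, adjusted p = 0.236).

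The ratio of the ligands also separated the hemispheres. Gas6 per kilobase was 0.401 to 0.903 of Pros1 in Ctrl CL and 1.03 to 1.83 in Ctrl IL, so Gas6 was the less abundant ligand in all 4 CL libraries and the more abundant in all 4 IL libraries. In cKO the ratio was 0.413 to 0.748 in CL and 0.761 to 1.41 in IL, and only mouse 3592 had more Gas6 than Pros1 in IL. These ratios are also given without a test. The ratio of Itgb5 to Itgav per kilobase overlapped between hemispheres in both genotypes. It was 54.7 to 107 in Ctrl CL and 47.6 to 76.1 in Ctrl IL, and 58.1 to 64.9 in cKO CL and 63.0 to 107 in cKO IL.

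**Figure D2:**
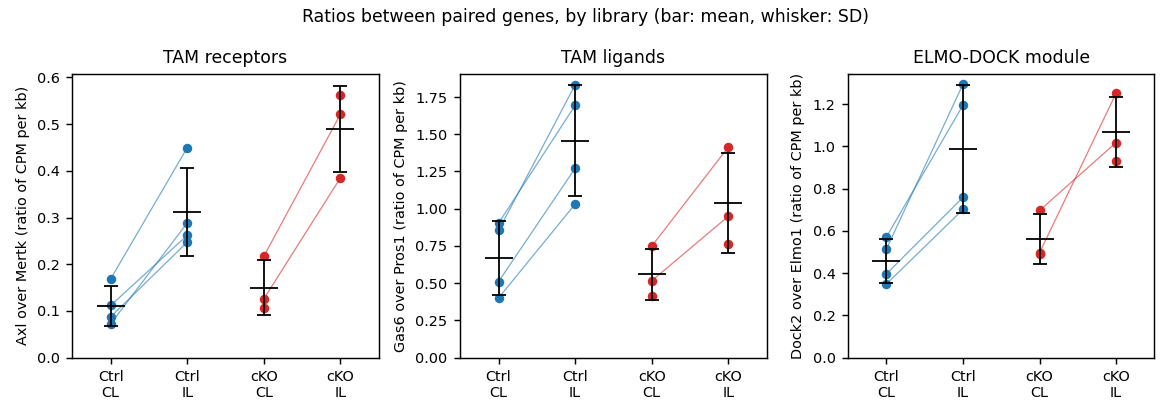
Ratios of CPM per kilobase between paired genes in each library (points, lines join the hemispheres of 1 mouse, bars are means and whiskers SD; n = 4 Ctrl and 3 cKO per hemisphere). Axl over Mertk, Gas6 over Pros1 and Dock2 over Elmo1 are higher in IL than in CL in each of the 6 mice with both hemispheres.

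Mfge8 encodes the secreted bridge between phosphatidylserine and αv integrins. In Ctrl it was at 70.7, 71.9, 53.1 and 52.1 CPM in CL and 48.8, 52.4, 50.6 and 43.3 CPM in IL, with IL at 0.690 to 0.953 of CL in the 4 mice but the groups overlapping, and it was not called (log2 -0.24, adjusted p = 0.527). In cKO it was at 61.5, 51.3 and 68.6 CPM in CL and 42.5, 40.8 and 39.4 CPM in IL, with no overlap, and it fell by 0.48 on the log2 scale (SE 0.12, adjusted p = 0.0266). That call was kept with the mouse as a random effect in all 14 libraries (-0.47, adjusted p = 0.0464) and lost with the mouse as a block in the cKO libraries (adjusted p = 0.0866) and without any of 788 CL, 3592 CL, 784 IL, 791 IL or 3592 IL (adjusted p from 0.0539 to 0.0912).

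Itgav, the αv integrin subunit, was called lower in IL in cKO and was not called in Ctrl. Ctrl CL libraries were at 71.3, 68.6, 165 and 132 CPM and Ctrl IL libraries at 83.1, 88.9, 169.8 and 118 CPM, and the spread between mice was larger than the difference between hemispheres (log2 0.20, 95% CI -0.42 to 0.82, adjusted p = 0.757). cKO CL libraries were at 143, 151 and 136 CPM and cKO IL libraries at 94.9, 79.5 and 122 CPM, without overlap, and Itgav fell by 0.49 on the log2 scale (SE 0.13, adjusted p = 0.0286). The call was lost with the mouse as a block (adjusted p = 0.101) and without 788 CL (adjusted p = 0.0745), 791 CL (0.0785), 784 IL (0.0937) or 791 IL (0.0928). The difference between the genotypes in this change, a log2 interaction of -0.71 (95% CI -1.45 to 0.04), was not called (limma adjusted p = 0.9997), so the genotypes were not shown to differ.

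Itgb5, the β5 subunit and the most abundant member, was at 2532, 2199, 2993 and 2602 CPM in Ctrl CL and 2092, 2211, 2675 and 2817 CPM in Ctrl IL. In cKO it was at 2753, 3247 and 2860.2 CPM in CL and 2890.1, 2814 and 2545 CPM in IL. The hemispheres overlapped in both genotypes. The log2 differences were 0.01 in Ctrl (95% CI -0.31 to 0.33) and -0.04 in cKO (95% CI -0.44 to 0.37), and the sign of the Ctrl value turned on the deposited scale (-0.08).

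Elmo1, the adaptor subunit of the engulfment module, was the member called between hemispheres in both genotypes without the block. It was at 441, 459.6, 675 and 577 CPM in Ctrl CL and at 267, 289, 379 and 298 CPM in Ctrl IL, with no overlap and with IL at 0.517 to 0.629 of CL within mice. Elmo1 fell by 0.71 on the log2 scale (SE 0.14, 95% CI -1.03 to -0.38, limma adjusted p = 0.018), a call lost only without the 3551 IL library (-0.65, adjusted p = 0.0579) among the 8 left out in turn. With the mouse as a block the adjusted p was 0.00261. In cKO it was at 653, 523 and 613 CPM in CL and 309.7, 301 and 309 CPM in IL, and it fell by 0.89 (SE 0.11, adjusted p = 0.00304), a call that held on leaving out each of the 6 libraries.

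Dock2, the exchange factor that partners ELMO1 in cells of the haematopoietic lineage, did not follow it down. Ctrl CL was at 159, 146, 350.2 and 269.6 CPM and Ctrl IL at 184, 184, 412 and 351 CPM, higher in IL by 1.16 to 1.30 times in 4 of 4 mice. These groups overlapped widely (log2 0.38, SE 0.30, adjusted p = 0.535), and with the mouse as a block the same difference was called (SE 0.08, adjusted p = 0.0146), though not without mouse 3541 (adjusted p = 0.0756), 3545 (0.082) or 3551 (0.0696), and not with the mouse as a random effect in all 14 libraries (log2 0.40, adjusted p = 0.0798). In cKO, Dock2 was at 292, 331 and 277 CPM in CL and 262, 278 and 351 CPM in IL, with 791 lower and 3592 higher in IL (log2 0.04, 95% CI -0.23 to 0.32). Per kilobase, Dock2 was 0.349 to 0.572 of Elmo1 in Ctrl CL and 0.702 to 1.30 in Ctrl IL.

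Counted over the 9 genes, 1 was called between hemispheres in Ctrl (Elmo1, lower), where 7.52% of 16376 genes tested were called. Of all genes 4.18% were higher and 3.33% lower (685 and 546 genes, or 625 and 814 on the deposited scale). Leaving out each library in turn gave 0 to 2 members. The call of Axl was gained without 3541 CL (0.88, adjusted p = 0.0495), that of Gas6 without 3551 CL (1.03, 0.0407) and that of Mertk without 3546 IL (-0.94, 0.0124). Without mice 3541 and 3545, an alternative chosen after seeing the data, no member was called in Ctrl (Elmo1 -0.80, adjusted p = 0.153). With the mouse as a block, which the labels support because the hemispheres came from the same animals, 6 were called, with Axl, Gas6 and Dock2 higher and Mertk, Pros1 and Elmo1 lower, where 20.5% of genes were called (10.2% higher and 10.3% lower). Leaving out each mouse from the blocked fit left 4 to 6 members called. Axl, Gas6, Mertk and Elmo1 were called in all 4 of these fits. In cKO 5 were called (Axl higher and Mertk, Mfge8, Itgav and Elmo1 lower), where 23.1% of genes were called. Of all genes 12.3% were higher and 10.8% lower (2067 and 1803 genes, or 1647 and 2146 on the deposited scale). Leaving out each library gave 2 to 4, and Gas6 gained a call without 3592 CL (0.80, adjusted p = 0.0255). The blocked cKO fit, which rests on 2 mice, called 4 (Axl and Gas6 higher, Mertk and Elmo1 lower), where 14.7% of genes were called (8.49% higher and 6.16% lower). The median log2 change of the members was 0.01 in Ctrl and -0.23 in cKO, against -0.03 and 0.01 over all genes tested. Hemispheres that did not overlap were found for 2 members in Ctrl, both lower in IL (17.7% of genes, 6.26% higher and 11.4% lower), and for 5 in cKO, of which Gas6 was higher (42.4% of genes, 18.1% higher and 24.3% lower).

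**Figure D3:**
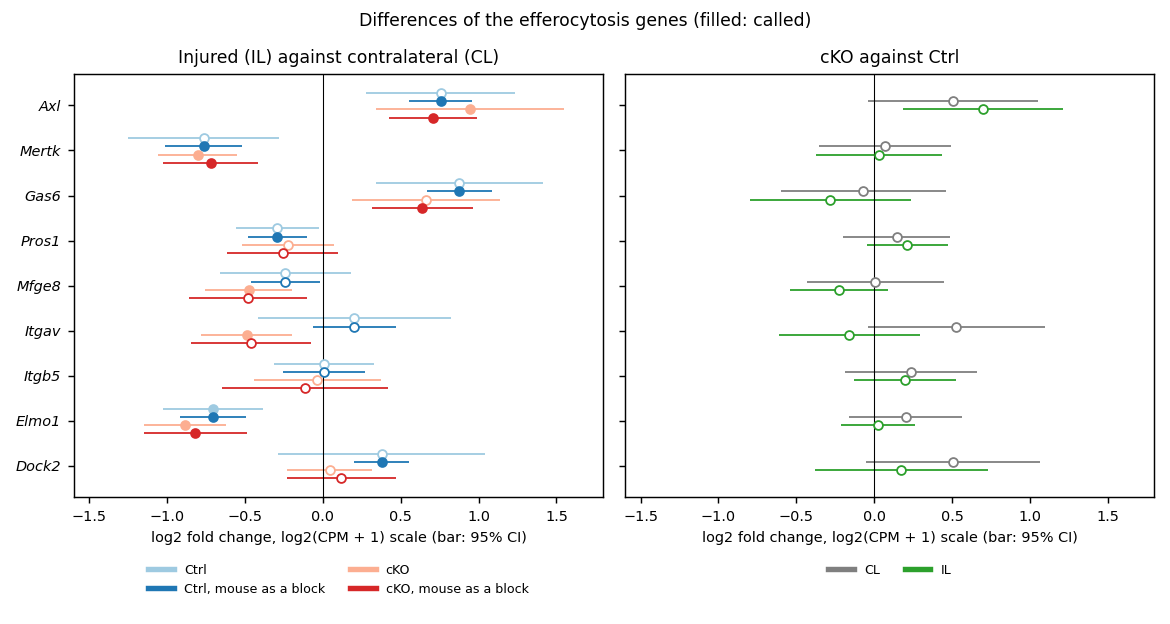
Log2 fold changes of the 9 genes with 95% CI, on the left for IL against CL (Ctrl and cKO, without and with the mouse as a block) and on the right for cKO against Ctrl in each hemisphere; filled points are called. Axl and Gas6 lie to the right and Mertk and Elmo1 to the left in all 4 hemisphere fits, and no point is filled on the right panel.

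Between genotypes, the question was whether the deletion moved these genes, and none of the 9 was called in either hemisphere. In IL 113 of 16873 genes (0.67%) were called, and in CL 150 of 16569 (0.905%). The difference nearest to a call was that of Axl in IL, with Ctrl libraries from 70.2 to 119 CPM and cKO libraries from 117 to 172 CPM, a log2 fold change of 0.70 (95% CI 0.19 to 1.21, limma adjusted p = 0.321). In CL Axl differed by 0.51 (95% CI -0.04 to 1.05, adjusted p = 0.529), with 791 CL alone above all Ctrl CL libraries. Mfge8 was the member whose genotypes did not overlap in IL, at 43.3 to 52.4 CPM in Ctrl and 39.4 to 42.5 CPM in cKO (log2 -0.23, 95% CI -0.54 to 0.09, adjusted p = 0.729), and 10.3% of all genes did not overlap there. In CL 10% of all genes and 0 of the 9 did not overlap.

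For the other genes the intervals bound what these libraries could show. In IL the 95% CI of cKO against Ctrl ran from -0.38 to 0.44 for Mertk, -0.80 to 0.23 for Gas6, -0.05 to 0.47 for Pros1, -0.61 to 0.29 for Itgav, -0.13 to 0.52 for Itgb5, -0.22 to 0.26 for Elmo1 and -0.38 to 0.73 for Dock2. In CL the widest was that of Itgav (-0.04 to 1.10). No member was called between genotypes in any alternative run, including the fits without Ctrl mice 3541 and 3545, which turned Mertk (log2 -0.12 in IL and -0.20 in CL) and Dock2 (-0.23 in IL) to the other sign. The interaction of genotype and hemisphere was called for 0 of the 9 and, by limma, for 0 of 18475 genes (477, or 2.58%, at an unadjusted p under 0.05), and 4 genes were called with the mouse as a random effect.

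Around the members, 62 further genes of the pathway were fixed in 6 lists, and 58 of them were tested between hemispheres. In Ctrl 7 were called higher and 2 lower (7.52% of all genes were called), and in cKO 12 higher and 3 lower (23.1%). With the mouse as a block, 16 were higher and 6 lower in Ctrl (20.5%) and 10 higher and 2 lower in cKO (14.7%). The median log2 change of the 58 genes was 0.06 in Ctrl and 0.19 in cKO, against -0.03 and 0.01 over all genes.

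Of the other phosphatidylserine and engulfment receptors, 2 of 13 rose in Ctrl (4.18% of all genes). With the mouse as a block 6 were higher (10.2% of all genes), adding Cd300lb (log2 0.83), Lrp1 (0.69), Scarb1 (0.39) and Stab1 (0.96), and 2 were lower (10.3%), Jmjd6 (-0.36) and Trem2 (-0.60, adjusted p = 0.0149). Cd36, a scavenger receptor that binds apoptotic cells with thrombospondin and takes up oxidised lipid, went from 23.9, 27.3, 30.9 and 21.4 CPM in Ctrl CL to 155, 126, 131 and 75.7 CPM in IL (log2 2.24, limma adjusted p = 0.00119) and from 20.0, 17.8 and 40.0 to 56.6, 72.6 and 121 CPM in cKO (1.73, adjusted p = 0.00899). Cd300lf, which encodes a phosphatidylserine receptor of the CD300 family, went from 39.0, 12.4, 16.9 and 17.6 CPM to 144, 122, 108 and 90.2 CPM in Ctrl (log2 2.58, adjusted p = 0.00217) and rose by 2.43 in cKO. Neither gene overlapped between hemispheres. Timd4, which encodes the phosphatidylserine receptor TIM4, was called in cKO too, but not with the mouse as a block (log2 1.04, adjusted p = 0.106), nor without 788 CL (log2 1.23, adjusted p = 0.0928), 791 CL (1.32, 0.0834), 784 IL (1.14, 0.12) or 791 IL (1.06, 0.119). The fit with the mouse as a random effect called it (log2 1.23, adjusted p = 0.0226).

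Among 8 bridging molecules and ligands, Thbs1 and Anxa5 were called higher in both genotypes and 0 were called lower. Of all genes 4.18% were called higher in Ctrl and 12.3% in cKO. The log2 fold change was positive for 3 of the 8 in Ctrl and for all 8 in cKO. Thbs1, thrombospondin 1, was at 58.7, 22.5, 75.6 and 37.6 CPM in Ctrl CL and 1031, 1152, 1389 and 1037 CPM in Ctrl IL, higher by 4.75 on the log2 scale (SE 0.31, adjusted p = 0.000128). In cKO it was at 61.8, 37.5 and 136 CPM in CL and 173, 462 and 629 CPM in IL (log2 2.48, adjusted p = 0.0148), a call lost without 791 IL (log2 2.29, adjusted p = 0.0604) or 3592 IL (2.15, 0.0501). The cKO IL libraries lay below all Ctrl IL libraries, although that difference was not called (log2 -1.61, adjusted p = 0.141) and the interaction was not called (-2.28, adjusted p = 0.9997). Anxa5, which encodes a phosphatidylserine-binding annexin, rose by 1.81 in Ctrl (adjusted p = 0.00137) and by 1.55 in cKO (adjusted p = 0.00196).

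The find-me receptors split. P2ry2, which encodes a receptor for extracellular ATP and UTP, rose from 1.53 to 3.48 CPM in Ctrl CL to 10.4 to 18.3 CPM in Ctrl IL (log2 2.36, adjusted p = 0.000705) and by 1.90 in cKO. P2ry12, the microglial ADP receptor, fell by 1.36 in Ctrl (adjusted p = 0.00261) and by 1.38 in cKO. Cx3cr1, the fractalkine receptor and the locus that carries CreER in all these mice, fell by 0.76 in Ctrl (adjusted p = 0.0182) and by 1.10 in cKO, and its Ctrl call was lost without 3541 IL (log2 -0.76, adjusted p = 0.0547), 3545 IL (-0.78, 0.0504) or 3551 IL (-0.73, 0.0577). That call was also lost with no filter beyond 1 read (log2 -0.77, limma adjusted p = 0.0786). P2ry12 and Cx3cr1 are also in the microglial marker list, so their fall is counted in both lists. With the mouse as a block Sirpa, the receptor of the brake CD47, was also called lower in Ctrl (-0.38, adjusted p = 0.0315).

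S1pr1, a receptor for sphingosine 1-phosphate, was the pathway gene called between genotypes. It was at 124, 155, 147 and 128 CPM in Ctrl CL and 43.3, 54.1 and 49.3 CPM in cKO CL, lower by a log2 difference of -1.44 (SE 0.15, limma adjusted p = 0.00114). Leaving out each of the 7 libraries kept the call (adjusted p at most 0.0121). Markers of several other cell types were also lower in cKO CL, but not of all. All 8 neutrophil markers were lower there, with 0 called by limma (0.905% of all genes in either direction). Of 8 monocyte markers 3 had a positive log2 fold change, as did 5 of 8 mural and fibroblast and 3 of 5 neuron markers, with 0 called. The 8 endothelial markers summed to 114.8 to 273.3 CPM in Ctrl CL and 89.1 to 157.8 CPM in cKO CL, with 7 of 8 lower and 0 called by limma (4 at an unadjusted p under 0.05, including Kdr, which was higher). The 8 oligodendrocyte markers summed to 221.5 to 314.8 CPM and 176.7 to 216.6 CPM, without overlap, with all 7 tested lower and Mobp called (log2 -1.66, adjusted p = 0.0466). The 8 border-associated macrophage markers summed to 342 to 723 CPM and 190 to 509 CPM, all lower, with 0 called by limma (4 at an unadjusted p under 0.05). In IL 4 of 8 endothelial, 5 of 8 oligodendrocyte and 0 of 8 border-associated macrophage markers were higher in cKO, with 0 called by limma. The part of these cells in the S1pr1 difference was not tested. In IL S1pr1 was at 158, 165, 162 and 150.3 CPM in Ctrl and 86.9, 115 and 110.1 CPM in cKO, again without overlap but not called (log2 -0.59, adjusted p = 0.143). Between hemispheres it rose by 1.13 in cKO (adjusted p = 0.00235), against 0.29 in Ctrl (adjusted p = 0.258), and the interaction of 0.83 was not called (adjusted p = 0.9997).

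In the list around ELMO and DOCK, none of 12 genes was called in Ctrl, with or without the mouse as a block. In cKO Rac2 rose by 0.44 (adjusted p = 0.0158) and Crkl fell by 0.48 (adjusted p = 0.0113), and neither was called when mice were blocked within cKO. With mice as a random effect in all 14 libraries Crkl was called (-0.45, adjusted p = 0.00452) and Rac2 was not (0.43, adjusted p = 0.14). The Crkl call was also lost without 784 IL (log2 -0.46, adjusted p = 0.0527), and the Rac2 call without 788 CL (log2 0.39, adjusted p = 0.0568), 784 IL (0.45, 0.064) or 791 IL (0.39, 0.0647). Of 13 genes for processing of engulfed cargo, Abca1 and Nr1h3 were called higher in Ctrl (4.18% of all genes). These and the lysosomal gene Cd68 and the mitochondrial carrier gene Ucp2 were called higher in cKO (12.3% of all genes). In each genotype 11 of the 13 had a positive log2 fold change. With the mouse as a block neither Cd68 (log2 0.57, adjusted p = 0.0696) nor Ucp2 (0.51, adjusted p = 0.0844) was called, and with the mouse as a random effect in all 14 libraries Ucp2 was called (0.54, adjusted p = 0.0317) and Cd68 was not (0.54, adjusted p = 0.0664). In Ctrl, the fit blocked on mice called 6 of the 13 higher (10.2% of all genes) and 0 lower, adding Abca7 (log2 0.80), Cd68 (0.51), Lamp1 (0.43) and Ucp2 (0.69, adjusted p = 0.00412). The cKO call of Cd68 was also lost without any of the 6 libraries (adjusted p at most 0.139), and that of Ucp2 was kept in 1 of 6 such fits. Nr1h3, which encodes the sterol-sensing receptor LXRα, went from 1.56 to 3.22 CPM in Ctrl CL to 6.49 to 14.1 CPM in Ctrl IL (log2 1.75, adjusted p = 0.00725) and rose by 2.06 in cKO. Abca1, the cholesterol exporter that LXR receptors induce, rose by 1.41 in Ctrl (adjusted p = 0.0373) and by 1.06 in cKO (adjusted p = 0.00303), and its Ctrl call was lost without 3541 CL (log2 1.25, adjusted p = 0.0807), 3545 CL (1.28, 0.109), 3551 CL (1.53, 0.0517) or 3551 IL (1.37, 0.103). The Ctrl call was also lost on the deposited scale (log2 1.32, limma adjusted p = 0.0762) and with no filter beyond 1 read (1.39, 0.0692). The cKO call was lost in the single fit of all 14 libraries (1.07, limma adjusted p = 0.0597). None of the 5 genes for TAM receptor shedding and feedback, including Adam10 and Adam17, whose proteases cut the receptors from the cell surface, was called in either genotype without the block. With it, Socs1 (-0.75, adjusted p = 0.0249) and Socs3 (0.46, adjusted p = 0.027), which encode feedback inhibitors of cytokine signalling, were called in Ctrl.

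**Figure D4:**
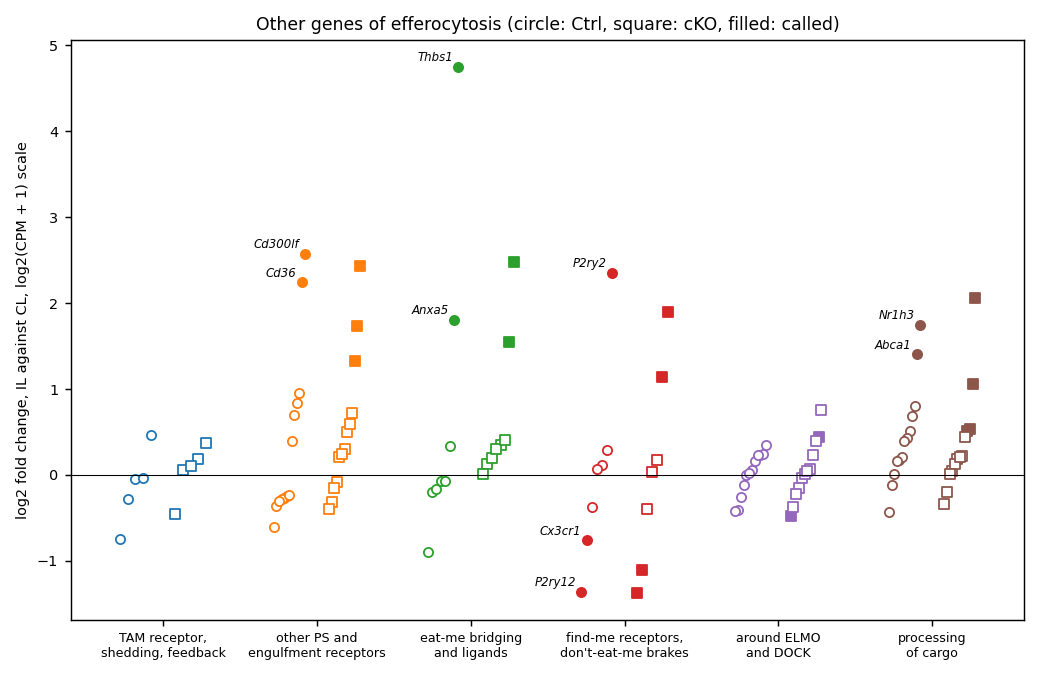
Log2 fold changes of IL against CL for the 58 tested pathway genes in 6 lists (circles Ctrl, squares cKO, filled where called). Thbs1 (4.75), Cd300lf (2.58), P2ry2 (2.36) and Cd36 (2.24) are highest and P2ry12 (-1.36) is lowest among the Ctrl points.

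Marker levels of several cell types differed between the same hemispheres as the members. Of all genes tested 4.18% were called higher and 3.33% lower in Ctrl, and 12.3% and 10.8% in cKO, as background for each list here. All 10 microglial markers were lower in IL, 7 called in Ctrl and 8 in cKO. Their sum fell from between 35099 and 44355 CPM in Ctrl CL to between 19113 and 20572 CPM in Ctrl IL, and from between 32018 and 36421 to between 17539 and 19682 CPM in cKO. Of 8 monocyte markers 4 were called higher in each genotype, and 5 of 8 in Ctrl and 7 of 8 in cKO had a positive log2 fold change. Their sums were 124 to 751 CPM in CL and 577 to 881 CPM in IL of Ctrl, and 118 to 324 CPM in CL and 565 to 777 CPM in IL of cKO. The 8 neutrophil markers summed to 544 to 7764 CPM in CL and 157 to 979 CPM in IL of Ctrl, and 583 to 1638 CPM in CL and 231 to 358 CPM in IL of cKO. By limma 0 of them were called in Ctrl (7 at an unadjusted p under 0.05, as were 21.9% of all genes, and all 8 lower in IL), and 6 were called lower in cKO. The 8 dissociation-response genes were all lower in IL, 1 called in Ctrl and 4 in cKO. The 8 astrocyte markers summed to 210.4 to 230.0 CPM in CL and 123.5 to 175.6 CPM in IL of Ctrl, without overlap, and to 182 to 221 CPM in CL and 133 to 190 CPM in IL of cKO, which overlapped, with 1 marker called higher and 1 lower in Ctrl and 1 higher and 2 lower in cKO. The 8 T and NK cell markers summed to 5.91 to 12.5 CPM in CL and 2.66 to 3.70 CPM in IL of Ctrl, where 2 of the 3 tested were called lower, and to 4.31 to 7.16 CPM in CL and 3.12 to 8.58 CPM in IL of cKO, where 0 of 5 were called by limma (0 at an unadjusted p under 0.05). No marker of these lists was at 0 throughout a group. The part of these shifts in the changes of the members was not tested.

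Over the 14 libraries, Axl was most like Oas2 (Pearson r = 0.964), Usp25 (0.963), Rnf213 (0.957), Irf7 (0.957) and Chid1 (0.952) among 18475 genes. Within the 7 CL libraries these r were 0.859 to 0.922, and within the 7 IL libraries 0.939 to 0.995. Oas2 and Axl were both highest in cKO 784 IL and 791 IL, where Oas2 was at 28.8 and 32.9 CPM. It was at 16.2 CPM in cKO 3592 IL, 11.5 CPM in cKO 791 CL, 5.89 to 15.3 CPM in Ctrl IL and 4.11 to 6.97 CPM in Ctrl CL. Mertk was most like Gprasp1, Nxf1, Tgfa, Atp8a2 and Mknk1 (0.967 to 0.981). Of the other members, Elmo1 was closest to Mertk at 0.949, and 0.806 within CL and 0.904 within IL. These are descriptions over libraries that share mice and hemispheres.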

How the data were processed

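RNA of magnetically sorted CD11b+ cells from 14 hemispheres was sequenced from Smart Seq v4 libraries. According to the submitters' notes and the methods of the study, reads were mapped with STAR to mm10 and processed in Partek Flow 8.0. The authors deposited values named raw counts, but each library sums to 1e+06, so they were read as CPM. Between 79.0% and 83.7% of the values under 100 reads are whole multiples of a step (tolerance 0.03), so whole reads could not be recovered and no count test was run. The authors also deposited tables of their own comparisons (p-values, FDR, ratios, fold changes and group means), which were not used.

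CPM were divided by trimmed-mean factors (30% and 5% trimmed, unweighted) and taken as log2(CPM + 1), which understates changes of low genes. A gene was tested if it reached the CPM of 10 reads at median depth in at least n libraries, where n is the size of the smaller group, and 15 reads in all. limma 3.58.1 (R 4.3.3), with a trend, fitted the libraries compared, with Benjamini-Hochberg adjustment across all genes tested. The scripts were tested on simulated data. Alternatives were other pseudocounts, scalings, filters and thresholds, a single fit of all libraries, the mouse as a block, and leaving out each library.

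The members and lists were chosen with earlier results of these data known. All members are named, with Tyro3, up to 3 higher and 3 lower genes per pathway list with the largest change among those called in Ctrl, pathway genes called between genotypes, and the 5 genes most like Axl and Mertk. Pathway genes called in Ctrl only with the block, Mobp, Kdr, Rac2, Crkl, Socs1, Socs3, Timd4, Cd68, Ucp2, Itgam, Adam10 and Adam17 were named after their values were seen. Pathway genes called in cKO only with the block were counted and not named. Mouse numbers come from the labels. Deviations from group means correlated at 0.184 to 0.603 in the 6 mice with both hemispheres, against -0.53 to 0.499 in 19 other pairs, so the mouse was used as a block in an alternative. The labels of 784 and 788 were read as different mice. Replicates are mice. Pairwise sequence identity came from BLAST 2.17.0, and motifs and figures from Python 3.11.15. The targeted gene is not reported here.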

Additional observations from a re-analysis of the deposited data

How the results depend on the processing

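Recomputed under other settings, 490 member fold changes kept their direction and side of the threshold, 14 lost a call, 15 gained one and 12 turned sign. Without a library or mouse 355 kept both, 20 lost a call, 4 gained one and 35 turned sign. In Ctrl the fixed replicate block called 3349 genes and 6 members, and the mouse as a random effect in all 14 libraries called 4454 genes and 5 members in Ctrl, 190 genes between genotypes in IL, 294 in CL and 4 for the interaction. In cKO the fixed block called 2455 genes. A single fit of all 14 libraries called 2068 genes and 4 members in Ctrl, 1554 and 3 in cKO, and 171 and 273 genes between genotypes in IL and CL. No filter beyond 1 read left 561 genes in Ctrl, 3 members in cKO, and 70 and 95 genes between genotypes in IL and CL. Reads in every library left 95 genes in CL. A fold change of at least 2 left 572 genes and 0 members in Ctrl and 813 and 0 in cKO. Median-ratio scaling called 2 members in Ctrl. Without mice 3541 and 3545, chosen after seeing the data, 0 members were called in Ctrl.

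Signs turned for small uncalled log2 values. These were Itgb5 in Ctrl (-0.079 on the deposited scale, -0.036 with upper-quartile scaling, -0.0055 without the filter), Dock2 in cKO (-0.022 and -0.010 with the same scalings), Mfge8 between genotypes in CL (-0.029 on the deposited scale, -0.037 without the filter), Elmo1 between genotypes in IL (-0.0022 in the single fit of 14 libraries), the Mertk interaction (0.0011 without the filter), and without mice 3541 and 3545 Mertk (-0.12 in IL, -0.20 in CL) and Dock2 (-0.23 in IL) between genotypes.

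Leaving out a library gave 0 to 2 members called in Ctrl, 2 to 4 in cKO and 0 between genotypes, and 572 to 1662 genes in Ctrl, 1960 to 3630 in cKO, 44 to 294 in IL, 67 to 161 in CL and 0 to 1 for the interaction. The blocked Ctrl fit gave 4 to 6 members. Ranges that crossed 0 were, between hemispheres, -0.035 to 0.060 for Itgb5 in Ctrl (-0.044 to 0.059 blocked), -0.082 to 0.066 for Itgb5 and -0.035 to 0.13 for Dock2 in cKO. Between genotypes they were -0.032 to 0.20 for Mertk and -0.012 to 0.080 for Elmo1 in IL, and -0.031 to 0.20 for Mertk, -0.23 to 0.087 for Gas6 and -0.095 to 0.11 for Mfge8 in CL. For the interaction they were -0.20 to 0.094 for Mertk, -0.038 to 0.11 for Pros1 and -0.12 to 0.047 for Itgb5.

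The groups held 3 or 4 mice, the shallowest library had 12.2 M reads, and neither isoforms nor single cells were resolved. The cause of these changes was not tested.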
